A study of Mus musculus with 8 samples.

Results

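S100 proteins were followed as 9 genes, *S100a1*, *S100a4*, *S100a6*, *S100a8*, *S100a9*, *S100a11*, *S100a13*, *S100a16* and *S100b*, taken by gene symbol from a count table of 21859 genes. All 9 were found. RNA came from whole aortas of 4 ApoE knockout (ApoE-/-) and 4 wild-type (WT) male C57BL/6 mice, 40 weeks old and on a normal chow diet, with 1 library per mouse. The mice had been perfused with saline, which removes most blood from the vessel. ApoE-/- mice lack apolipoprotein E in every tissue and develop atherosclerosis spontaneously, so the comparison sets a diseased against a healthy artery. Whole aortas hold every cell of the wall and whatever surrounding tissue was dissected with it, and in such samples fewer cells of a type and less RNA per cell cannot be told apart.

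S100 proteins are small calcium sensors that work mostly as dimers: calcium binding to a pair of EF-hand loops opens a groove that holds a target protein. Inside the cell they act on the cytoskeleton, membranes, annexins and ion pumps. Some are also released and then act as danger signals. S100a8 and S100a9 pair as calprotectin, the main cytosolic protein of neutrophils and also present in monocytes, which binds Toll-like receptor 4 and the receptor for advanced glycation end products (RAGE, gene *Ager*). In mouse most S100 genes sit side by side in a cluster on chromosome 3.

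Of the 9 genes, 8 lay on chromosome 3 of GRCm38, and *S100b* lay on chromosome 10 from 76253853 to 76261159. *S100a8* (90668978 to 90670035, plus strand) and *S100a9* (90692632 to 90695721, minus strand) faced each other with 22597 bases between their ends. *S100a1* (90511034 to 90514392, minus strand) and *S100a13* (90514435 to 90524581, plus strand) ran apart from nearly the same point, with annotated starts 43 bases from each other. *S100a16* (90537254 to 90543151), *S100a4* (90603771 to 90606045) and *S100a6* (90612882 to 90624181) followed on the plus strand. *S100a11* lay farther along, from 93520488 to 93526287.

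The start regions of *S100a8* and *S100a9* are shown because these were the members whose values did not overlap between genotypes. Each window runs from 250 bases before to 50 after the start in RefSeq (GRCm38.p6), chr3:90668821-90669120 on the plus strand and chr3:90695672-90695971 on the minus strand. Capitals mark matches, on either strand, to the letters TATAAA of core promoters, to GAGGAAG, bound by the myeloid factor PU.1, and to TTGCNNAA, bound by C/EBP factors of myeloid cells and adipocytes. The letters TGANTCA (AP-1) were also searched and were in neither window.
S100a8: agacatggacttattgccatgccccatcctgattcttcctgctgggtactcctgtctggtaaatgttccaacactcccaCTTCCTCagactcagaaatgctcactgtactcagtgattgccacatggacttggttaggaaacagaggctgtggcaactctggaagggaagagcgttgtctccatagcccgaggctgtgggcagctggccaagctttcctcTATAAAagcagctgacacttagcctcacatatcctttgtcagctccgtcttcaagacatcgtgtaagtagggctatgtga
S100a9: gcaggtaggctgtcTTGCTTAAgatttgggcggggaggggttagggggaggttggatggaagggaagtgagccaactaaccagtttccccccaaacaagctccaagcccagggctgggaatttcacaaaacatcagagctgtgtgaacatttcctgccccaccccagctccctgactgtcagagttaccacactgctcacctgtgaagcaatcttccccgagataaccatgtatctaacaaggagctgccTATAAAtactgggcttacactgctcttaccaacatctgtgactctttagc
Both windows held TATAAA, which 13.6% of 32851 windows of this length held, 30 bases before the start of *S100a8* and at the start itself in *S100a9*. A PU.1 match stood in that of *S100a8* (13.6% of all windows) and a C/EBP match in that of *S100a9* (10.8% of all windows). *S100a4* also held both TATAAA and the PU.1 letters. AP-1 letters stood in 7.81% of all windows and, among the members, in that of *S100a11* and in 1 of the 2 start windows of *S100a16*. These matches are letters in a window and were not tested as binding sites.

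The region between *S100a1* and *S100a13* is shown because both genes start from it. The window belongs to *S100a13* (chr3:90514185-90514484, plus strand), and capitals mark the stretch between the RefSeq start of *S100a1*, read leftwards, and that of *S100a13*, read rightwards, 105 bases apart.
S100a13: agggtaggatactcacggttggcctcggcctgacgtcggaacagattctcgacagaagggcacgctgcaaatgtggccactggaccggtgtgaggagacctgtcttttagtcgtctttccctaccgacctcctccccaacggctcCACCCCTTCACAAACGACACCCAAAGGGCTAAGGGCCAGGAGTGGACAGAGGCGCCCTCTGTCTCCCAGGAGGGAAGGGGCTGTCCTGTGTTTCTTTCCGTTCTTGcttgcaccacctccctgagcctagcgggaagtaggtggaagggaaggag
None of the 4 sets of letters was found in this window or in that of *S100a1*.

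Between 18375898 and 23940156 read pairs per library were counted on genes, and the range was higher in ApoE-/- (from 23240995) than in WT (to 21664598). The share of pairs on genes (32.3% to 35.6% against 27.9% to 30.2%) and the mitochondrial share of those pairs (2.84% to 5.16% against 5.52% to 6.92%) also did not overlap between the genotypes, and their part in the results was not tested. *Apoe* had 14.7 to 36.3 CPM (counts per 1000000, scaled by TMM factors) in ApoE-/- and 536 to 857 CPM in WT, so no library went against its label. ApoE-/- replicate 1 stood apart from the other ApoE-/- libraries in several tissue markers, with contractile smooth muscle genes summing to 5293 CPM against 13100 to 21415 CPM. The genotypes were compared with edgeR's quasi-likelihood test over 15077 genes, with Benjamini-Hochberg adjustment and a threshold of 0.05.

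By level per length in WT aortas, *S100a1* and *S100a6* were the most abundant members, at 124 ± 32.1 and 91.9 ± 10.4 CPM per kilobase of exon (SD, n = 4). *S100a13* followed with 53.1 ± 10.6, *S100a16* with 26.3 ± 1.62, *S100a11* with 17.8 ± 1.97 and *S100b* with 16.7 ± 3.32 CPM per kilobase. *S100a4* had 5.64 ± 0.494, *S100a9* 0.817 ± 0.063 and *S100a8* 0.402 ± 0.142 CPM per kilobase. The 4 WT values of *S100a1* overlapped those of *S100a6*, and those of *S100a11* overlapped those of *S100b*, whereas every other pair of neighbours in this order was separate. With the longest transcript as length, *S100a6* (161 CPM per kilobase) came before *S100a1* (127 CPM per kilobase) and the other places stayed as they were. In ApoE-/- aortas the means kept the same order, from 110 CPM per kilobase for *S100a1* to 1.86 for *S100a8*. The low place of *S100a4* may be a lower limit, since 302 of its 584 exonic bases are shared, on the same strand, with the annotated gene *Gm42674*, which had 0 counts in every library. Counting of read pairs in this stretch is not described in the sources used here.

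Of the 9 members, *S100a8*, *S100a9* and *S100a4* were the ones with a difference between genotypes beyond 0.5 on the log2 scale, each higher in ApoE-/- aortas. None of the 8 members tested passed edgeR's threshold (0 of 8, where 0.464% of all genes tested were called). At an unadjusted p under 0.05 there were 2 members, *S100a9* and *S100a4*, both higher in ApoE-/- (11.4% of all genes, 7.19% counting higher ones alone). DESeq2, the tool of the study, called these 2 (4.81% of all genes, 3.12% higher ones alone), and limma-voom called 0 with 2 at an unadjusted p under 0.05. The fitted differences were positive for 4 members and negative for 4, with a median log2 fold change of 0.04 beside 0.05 over all genes tested. *S100a9* reached the count minimum of the test in 4 ApoE-/- libraries and 1 WT library, so it was tested because it was high in ApoE-/-. *S100a8* reached it in 3 ApoE-/- libraries and 0 WT libraries and was left out of the test.

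**Figure D1:**
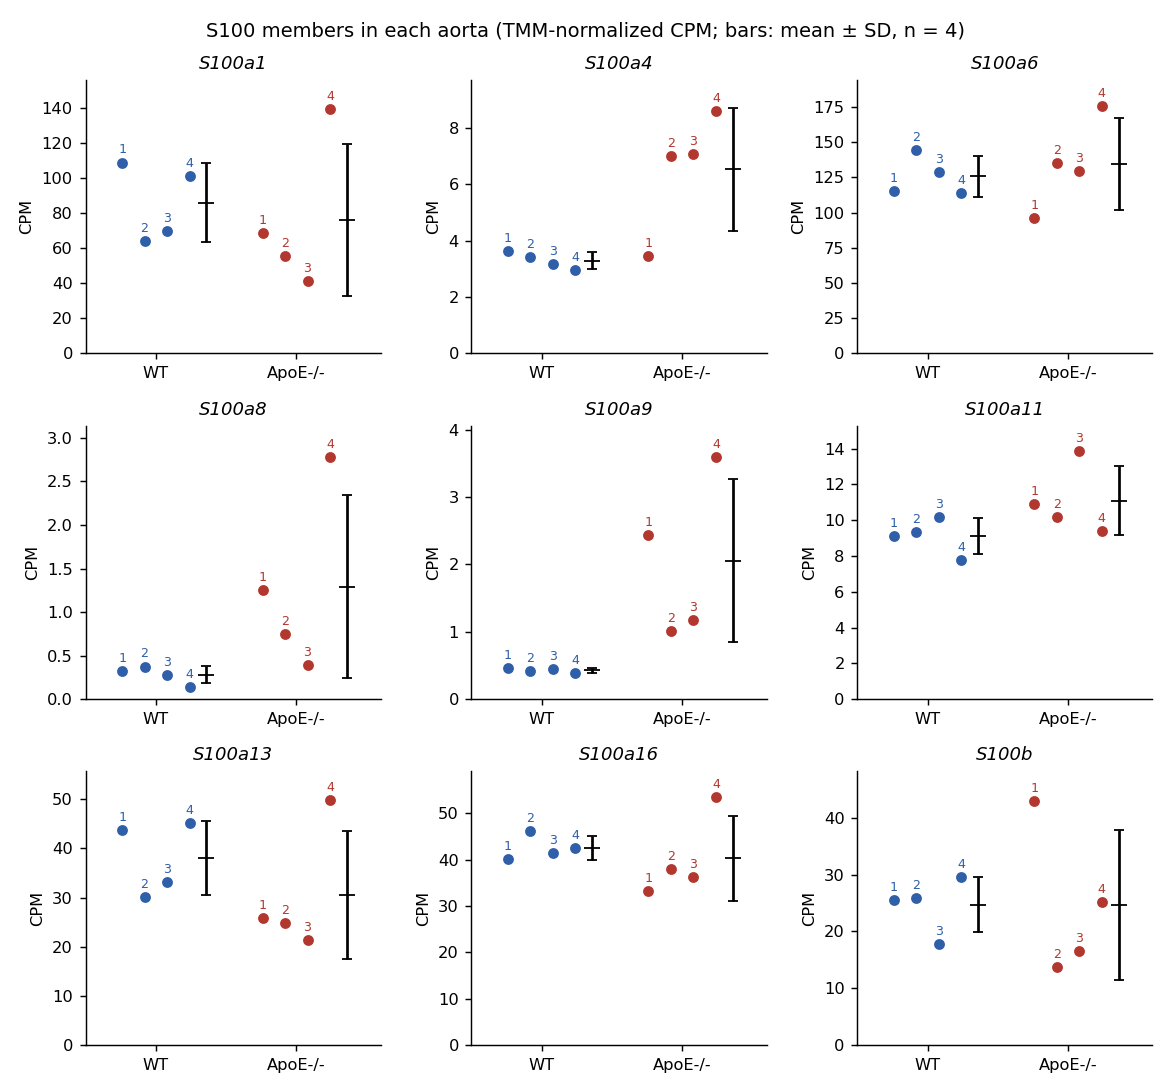
TMM-normalized CPM of the 9 S100 members in each aorta (points, numbered by replicate) with the mean and SD of 4 mice beside them, each panel from 0. All 4 ApoE-/- points lie above all WT points for S100a8 and S100a9, 3 of 4 do for S100a4, and the genotypes overlap for the other members. For S100a13 and S100a16, 3 of 4 ApoE-/- points lie below all WT points and 1 lies above them.

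The alarmin pair was rare in the aorta, with means several times higher in ApoE-/- than in WT mice. *S100a9* (ENSMUSG00000056071.12) was counted 60, 23, 27 and 83 times in ApoE-/- aortas, listed from replicate 1 to 4, and 10, 9, 8 and 8 times in WT aortas. Its CPM were 2.43, 1.01, 1.18 and 3.60 against 0.459, 0.421, 0.443 and 0.383. Every ApoE-/- aorta was above every WT aorta, and replicates 1 and 4 were the highest. The means were 2.05 ± 1.21 against 0.427 ± 0.0329 CPM (SD, n = 4). The log2 difference fitted by edgeR was 2.25 ± 0.45 (SE), with an adjusted p of 0.0696 there and 0.00174 in DESeq2. It ranked 198 of 15077 genes by edgeR's unadjusted p.

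*S100a8* (ENSMUSG00000056054.9) was counted 31, 17, 9 and 64 times in ApoE-/- and 7, 8, 5 and 3 times in WT aortas, again from replicate 1 to 4. Its CPM were 1.26, 0.743, 0.392 and 2.78 against 0.321, 0.374, 0.277 and 0.144. The genotypes did not overlap, but ApoE-/- replicate 3 was only just above WT replicate 2 (9 and 8 counts). Summed over 4 libraries there were 121 counts (95% exact Poisson interval 100.4 to 144.6) in ApoE-/- and 23 (14.6 to 34.5) in WT, intervals that cover counting error only. Without the low-count filter its log2 fold change was 2.18 (SE 0.62), with an edgeR adjusted p of 0.2 over 19606 genes (0.321% called). Leaving out single mice let it enter the test in 5 of 8 fits, each time because it was high in ApoE-/- libraries. Its log2 differences there were 1.97 to 2.49, which edgeR did not call (adjusted p from 0.162 to 0.452). DESeq2 called it without ApoE-/- replicate 3, its lowest ApoE-/- library (2.50, adjusted p = 0.014), and in none of the other 4. All ApoE-/- values lay above all WT values for 2 of the 9 members, *S100a8* and *S100a9*, beside 4.73% of the genes with any count and 5.41% of the genes tested. For none of the 9 did they all lie below (3.3% of the genes tested).

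Within the ApoE-/- group both genes were highest in replicate 4 and next highest in replicate 1. The ratio of *S100a9* to *S100a8* counts was 1.30 to 3.00 in ApoE-/- libraries and 1.12 to 2.67 in WT libraries, overlapping ranges that rest on few counts. By the root mean square (RMS) difference between profiles of log2 CPM centred over the 8 libraries, the tested gene most like *S100a8* was *S100a9* (0.39), followed by *Il1r2*, the decoy receptor of interleukin-1 and also one of the neutrophil genes below (0.44), and *Bin2* (0.46). The genes most like *S100a9* were *Tnfsf11*, which encodes the osteoclast cytokine RANKL (0.27), *Bin2* (0.34) and *Cd52*, a leukocyte surface glycoprotein (0.35). For scale, the profile of *S100a9* itself had an RMS of 1.07. The profiles span both genotypes, so this likeness includes the genotype difference itself and is not separate support for it.

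Markers of neutrophils differed among themselves. Of 14 neutrophil genes, 5 passed the count filter, and 2 of these were called by edgeR and 3 by DESeq2, all higher in ApoE-/-. The 14 genes summed to 24.2 to 61.9 CPM in ApoE-/- and 8.48 to 10.2 CPM in WT. Most of that sum came from *Lcn2*, an iron-trapping protein that many activated cells make, at 15.1 to 52.5 CPM in ApoE-/- and 4.13 to 5.51 CPM in WT, and from *Csf3r*, the receptor for granulocyte colony-stimulating factor, at 5.34 to 8.77 and 1.16 to 2.11 CPM. The third DESeq2 call was *Il1r2*, counted 40, 32, 13 and 52 times in ApoE-/- replicates 1 to 4 and 9, 14, 4 and 8 times in WT. It overlapped in ApoE-/- replicate 3 and was highest in replicates 4 and 1 (log2 difference 1.78, DESeq2 adjusted p = 0.0396). Like *S100a9*, *Il1r2* passed the count filter because it was high in ApoE-/-. The genes that define granulocytes most strictly were at or near 0, with *Stfa2l1* at 0 counts in every library and *Ly6g*, a surface antigen of mature granulocytes, and *Mpo*, the myeloperoxidase of their granules, at no more than 1 count each. Other granulocyte genes of the list were sparse. *Mmp8*, the neutrophil collagenase, was counted 3, 7, 24 and 37 times in ApoE-/- and 1, 2, 2 and 1 times in WT, without overlap. *Cxcr2*, a chemokine receptor of neutrophils, was counted 18, 5, 6 and 20 times against 5, 1, 2 and 4 times, and *Retnlg*, a resistin of neutrophils, 11, 3, 7 and 17 times against 3, 4, 5 and 2 times, so both were highest in replicates 4 and 1 as the pair was. The other genes of the list, most of them granule genes, did not share a direction. *Elane*, the most counted of them, had 18, 13, 5 and 39 counts in ApoE-/- and 24, 16, 17 and 33 in WT. Its log2 difference of −0.44 was the 1 negative value among the 5 genes tested. *Ltf* (5, 5, 5 and 7 against 15, 4, 4 and 4) and *Camp* (2, 4, 0 and 1 against 3, 0, 3 and 1) also had lower means in ApoE-/-. *Ngp* (6, 6, 3 and 7 against 3, 0, 2 and 3) and *Padi4* (12, 10, 19 and 14 against 9, 13, 9 and 10) had higher means.

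Monocyte and macrophage genes stood higher as well. Of 12 listed, 11 were tested, all 11 had positive differences (median log2 fold change 1.55) and 1, *Trem2*, was called by edgeR against 8 by DESeq2. The list summed to 497 to 2500 CPM in ApoE-/- and 272 to 399 CPM in WT. Its sum, which *Lyz2* and *Gpnmb* dominate, was lowest in ApoE-/- replicate 1 and highest in replicate 4. The genes of the list that mark recruited monocytes had another order. *Ccr2*, their chemokine receptor, had 29.2, 23.4, 15.2 and 47.2 CPM in ApoE-/- replicates 1 to 4, the order of *S100a8*, and 6.04 to 14.9 CPM in WT. *Ly6c2* had 1.83, 0.35, 1.48 and 1.35 CPM and *Chil3* 1.58, 0.394, 0.697 and 1.39 CPM, each highest in replicate 1. In WT they had 0.431 to 0.734 and 0 to 0.328 CPM. *Ly6c2* thus overlapped, with ApoE-/- replicate 2 below every WT aorta, and *Chil3* had too few counts to be tested. The part of these cells in the values of *S100a8* and *S100a9* was not tested.

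**Figure D2:**
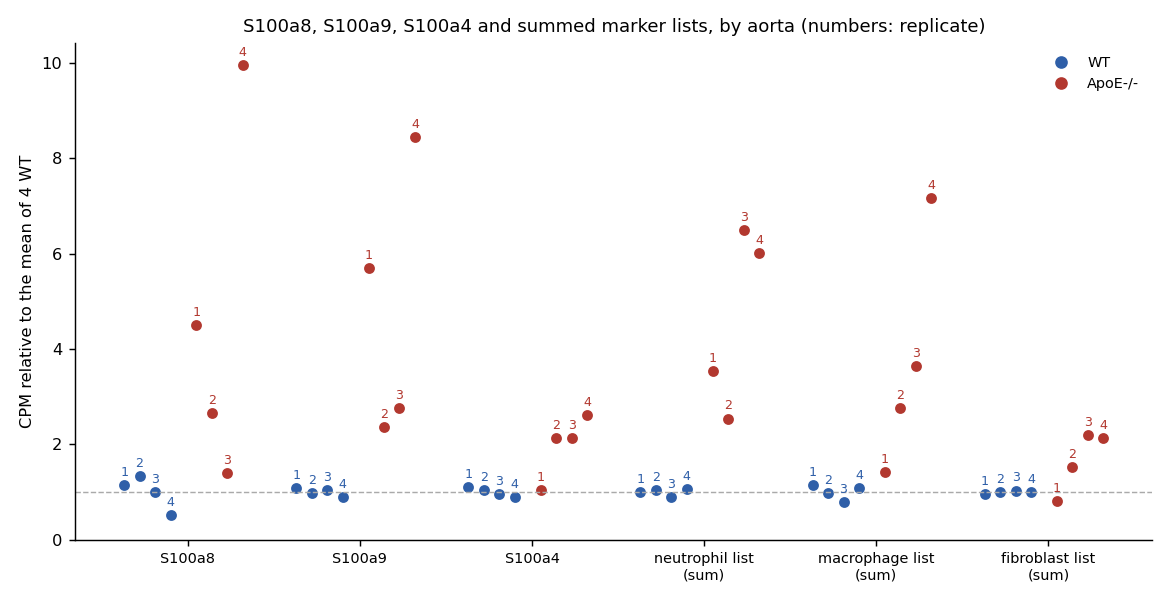
CPM of S100a8, S100a9 and S100a4 and the summed CPM of 3 marker lists, each divided by its mean in 4 WT aortas (dashed line at 1), with 1 point per aorta numbered by replicate. ApoE-/- replicate 1 is second highest for both calprotectin genes and lies at the WT level for S100a4, while the macrophage and neutrophil sums are above WT in all 4 ApoE-/- aortas.

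The receptors of extracellular S100 proteins held no gene called over all 8 aortas. Of 10 genes for receptors and their signalling chain, all tested, edgeR and DESeq2 each called 0, and 8 of 10 had positive differences, with a median log2 fold change of 0.17. *Ager* was sparse, at 1.40 to 3.40 CPM in ApoE-/- and 1.82 to 3.08 CPM in WT. *Tlr4* had 43.8 to 105.9 and 68.0 to 73.7 CPM, with a log2 fold change of 0.16 (SE 0.24). *Cd14*, the co-receptor of Toll-like receptor 4, had 10.3, 12.3, 15.9 and 26.7 CPM in ApoE-/- replicates 1 to 4 and 7.30, 9.27, 7.59 and 9.24 CPM in WT replicates 1 to 4. Every ApoE-/- value of *Cd14* lay above every WT value, as for 5.41% of the genes tested. Neither tool called its log2 difference of 0.96 ± 0.29 (edgeR adjusted p = 0.212, DESeq2 adjusted p = 0.0584). Without ApoE-/- replicate 1, DESeq2 called *Cd14* and 3 genes of the partner list, *Anxa1*, *Il1a* and *Iqgap1*, and without ApoE-/- replicate 4 it called *Cd36*, while edgeR called none of them. *Cd36*, a scavenger receptor that also binds S100 proteins, had 783 to 1946 CPM in ApoE-/- and 1731 to 2635 CPM in WT, with overlap.

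*S100a4* (ENSMUSG00000001020.8), which binds non-muscle myosin and is known from fibroblasts, macrophages and migrating cells, stood above every WT aorta in 3 of the 4 ApoE-/- aortas. It was counted 85, 160, 162 and 198 times in ApoE-/- and 79, 73, 57 and 62 times in WT aortas, or at 3.45, 6.997, 7.06 and 8.59 CPM against 3.63, 3.42, 3.16 and 2.97 CPM. Replicates 2, 3 and 4 of ApoE-/- stood above all WT aortas, and replicate 1 lay within the WT range. Its log2 difference was 0.99 ± 0.27 (SE), which DESeq2 called (adjusted p = 0.0399) and edgeR did not (adjusted p = 0.17). Without ApoE-/- replicate 1 it was 1.20 with an edgeR adjusted p of 0.0105. Among the 8 edgeR fits that left out 1 mouse, *S100a4* passed the threshold in this fit alone. DESeq2 also called it in this fit (adjusted p = 1.16e-07). Without any of the other 7 mice the DESeq2 log2 difference stayed at 0.82 to 1.03, close to the value over all mice, and missed the threshold (adjusted p from 0.121 to 0.211).

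The genes most like *S100a4* were the linker histone *H1f3* (RMS difference 0.09), *Soat1*, which esterifies cholesterol for storage (0.14), and *Gusb*, a lysosomal glucuronidase (0.16). Beside it, fibroblast genes (8 of 8 tested, all with positive differences, none called by edgeR, 2 called by DESeq2) summed to 3021 CPM in ApoE-/- replicate 1 and to 5644 to 8150 CPM in the other ApoE-/- aortas, against 3525 to 3827 CPM in WT. Thus *S100a4*, the fibroblast sum and the macrophage sum were each lowest in replicate 1 among the ApoE-/- aortas, and the part of these cells in its level was not tested. Its partner *Myh9*, the heavy chain of non-muscle myosin, had 781 to 1286 CPM in ApoE-/- and 773 to 890 CPM in WT (log2 fold change 0.26, SE 0.19).

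**Figure D3:**
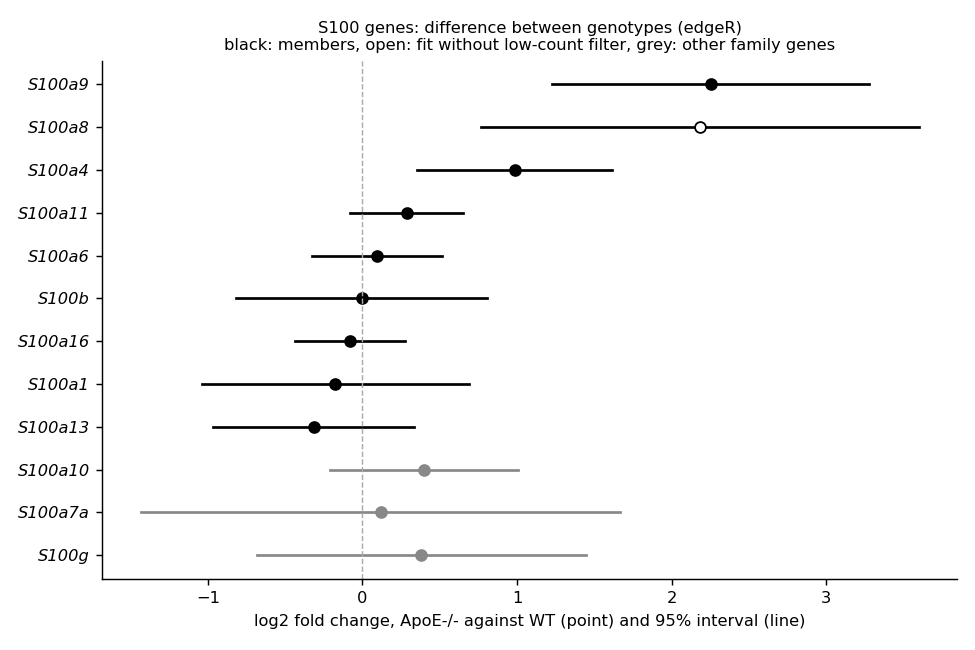
edgeR log2 fold change of ApoE-/- against WT (points) with its 95% interval (lines) for the members (black; S100a8, open, from the fit without a low-count filter) and for 3 other tested S100 genes (grey). The intervals of S100a9, S100a8 and S100a4 lie above 0 before adjustment over all genes, and those of the other genes include 0.

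For *S100a6* and *S100a16* there was no difference that could be told from the spread between mice. *S100a6* (ENSMUSG00000001025.8), calcyclin, had 96.2, 135, 129.8 and 176 CPM in ApoE-/- and 115, 144, 129.1 and 114 CPM in WT replicates 1 to 4. The ApoE-/- aortas held both the lowest and the highest value. Its log2 fold change was 0.10 (SE 0.18, 95% interval −0.33 to 0.52). *S100a16* had 33.1, 38.0, 36.3 and 53.6 CPM against 40.1, 46.2, 41.4 and 42.6 CPM, a log2 fold change of −0.08 (95% interval −0.44 to 0.28). Again the ApoE-/- values lay on both sides of all WT values, with 3 below them and 1 above. These intervals leave out a change of 2 times in either direction. Without ApoE-/- replicate 1 the edgeR values were 0.23 for *S100a6* and 0.0034 for *S100a16*, and without ApoE-/- replicate 4 they were −0.062 and −0.25, none of them called.

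*S100a6* and *S100a16* had the most similar profiles of the 36 pairs of members (RMS difference 0.14). The genes most like *S100a6* were the histone gene *H4c14* (0.06), the ribosomal scaffold *Rack1* (0.07) and *Rpl4*, a protein of the large ribosomal subunit (0.08). Those most like *S100a16* were *Rpl8* (0.04), *Gzf1* (0.05) and *Rps20* (0.06), of which *Rpl8* and *Rps20* encode ribosomal proteins. The profiles of *S100a6* and *S100a16* themselves were nearly flat, with an RMS of 0.24 and 0.20, so there was little variation to compare.

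*S100a11* (ENSMUSG00000027907.4), which binds annexin A1 and takes part in membrane repair, had 10.9, 10.2, 13.9 and 9.42 CPM in ApoE-/- and 9.13, 9.31, 10.2 and 7.76 CPM in WT replicates 1 to 4. Replicates 1 and 3 of ApoE-/- were above all WT aortas and the other 2 overlapped them. The log2 difference was 0.29 ± 0.16 (SE), with an edgeR adjusted p of 0.596, and 0.16 without ApoE-/- replicate 3, its highest library. Its closest profiles were *Slc44a2* (RMS difference 0.05), a choline transporter, *Nol10* (0.06) and *Pdlim4* (0.07), which binds actin filaments.

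Of 13 intracellular partners of S100 proteins, all were tested, 10 had positive differences (median log2 fold change 0.16) and edgeR called 0. Over these and the receptor genes together, 3 of 23 had an unadjusted p under 0.05 in edgeR (*Cd14*, *Anxa2* and *Il1a*), beside 11.4% of all genes tested. DESeq2 called 1, *Anxa2*, beside 4.81% of all genes tested. In limma-voom 0 of 23 were called, with 4 at an unadjusted p under 0.05. *Anxa2* had 306, 228, 279 and 308 CPM in ApoE-/- and 198, 226, 208 and 201 CPM in WT replicates 1 to 4. Every ApoE-/- value lay above every WT value, as for 5.41% of the genes tested. The log2 difference was 0.43 ± 0.13 (SE), which DESeq2 called (adjusted p = 0.0191) and edgeR did not (adjusted p = 0.207). The DESeq2 call was kept without ApoE-/- replicate 2 or WT replicate 2 and lost without any of the other 6 mice. Its S100 partner, *S100a10*, belongs to the family but not to the 9 members, and had 169, 73.0, 84.7 and 119 CPM in ApoE-/- and 69.9, 97.6, 77.3 and 93.6 CPM in WT, with overlap (log2 difference 0.40 ± 0.26, edgeR adjusted p = 0.693, and 0.13 without ApoE-/- replicate 1, its highest library). *Anxa1*, the partner of *S100a11*, had 94.9 to 298 CPM against 165 to 215 CPM, and *Cacybp*, a partner of *S100a6*, 22.0 to 66.9 against 23.5 to 29.4 CPM. The highest *Cacybp* value and the lowest *Anxa1* value both came from ApoE-/- replicate 1.

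*S100a1* and *S100a13* varied strongly among mice of 1 genotype and did so together. *S100a1* (ENSMUSG00000044080.9), a regulator of calcium pumps and release channels best known from heart muscle, had 68.9, 55.8, 41.3 and 139 CPM in ApoE-/- and 109, 64.3, 70.0 and 101.4 CPM in WT replicates 1 to 4. *S100a13* (ENSMUSG00000042312.10), which assists the release of fibroblast growth factor 1 and interleukin-1 alpha, had 25.8, 24.9, 21.4 and 49.96 CPM against 43.7, 30.1, 33.1 and 45.1 CPM. For both genes ApoE-/- replicate 4 and WT replicates 1 and 4 were the highest, and ApoE-/- replicate 3 was the lowest. For *S100a13*, 3 ApoE-/- aortas lay below all WT aortas and 1 lay above them. The ratio of *S100a1* to *S100a13* counts stayed between 1.93 and 2.79 in the 8 libraries. Across members their profiles were the second most similar pair of 36 (RMS difference 0.17). Among all tested genes, *S100a13* was number 58 in likeness to *S100a1*, and *S100a1* number 33 in likeness to *S100a13*, so other genes were closer to each than its neighbour.

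Neither gene differed between genotypes beyond this spread. The log2 fold change was −0.17 for *S100a1* (SE 0.38, 95% interval −1.04 to 0.69, edgeR adjusted p = 0.92). For *S100a13* it was −0.32 (SE 0.28, 95% interval −0.97 to 0.34, edgeR adjusted p = 0.789). Single ApoE-/- mice moved both values. Without replicate 3, the lowest, they were 0.031 for *S100a1* and −0.18 for *S100a13*. Without replicate 4, the highest, they were −0.64 and −0.66, and *S100a13* passed the threshold in DESeq2 (adjusted p = 0.0227) but not in edgeR (adjusted p = 0.184).

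The genes most like *S100a1* were *Aldh6a1*, an enzyme of valine breakdown (RMS difference 0.10), *Sdhc*, a subunit of respiratory complex II (0.11), and *Isoc2a* (0.12). For *S100a13* they were *Arl4a* (0.09), *Heph*, a copper-containing oxidase of iron (0.10), and again *Isoc2a* (0.11). Adipocyte genes, 9 of 9 tested with none called by edgeR or DESeq2, summed to 9619, 5434, 3695 and 14631 CPM in ApoE-/- and 11123, 7915, 8353 and 16271 CPM in WT replicates 1 to 4. The 3 aortas with the highest adipocyte sums were the 3 with the most *S100a1* and *S100a13*, and the aorta with the lowest sum had the least of both. Cardiac muscle genes were lower in all 4 ApoE-/- aortas, at 154, 49.3, 67.9 and 57.2 CPM against 573, 263, 337 and 348 CPM in WT replicates 1 to 4. Of them, 9 of 9 were tested with negative differences, none called by edgeR and 7 by DESeq2. *S100a1* did not follow this difference between genotypes. Within WT, the order of *S100a1* was that of the cardiac sum (replicates 1, 4, 3 and 2), and within ApoE-/- that of the adipocyte sum (replicates 4, 1, 2 and 3). The part of fat or heart tissue in these values was not tested. Among the partners, *Atp2a2*, the calcium pump of the sarcoplasmic reticulum, had 433 to 788 CPM in ApoE-/- and 620 to 708 CPM in WT, and *Ryr2*, the calcium release channel, 123 to 311 and 192 to 335 CPM, both with overlap. *Fgf1* had 72.5 to 150.3 CPM against 89.2 to 105.8 CPM. *Il1a* was rare, at 0.771 to 2.34 CPM against 0.328 to 0.91 CPM, with overlap (log2 difference 1.19 ± 0.42, edgeR adjusted p = 0.29).

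**Figure D4:**
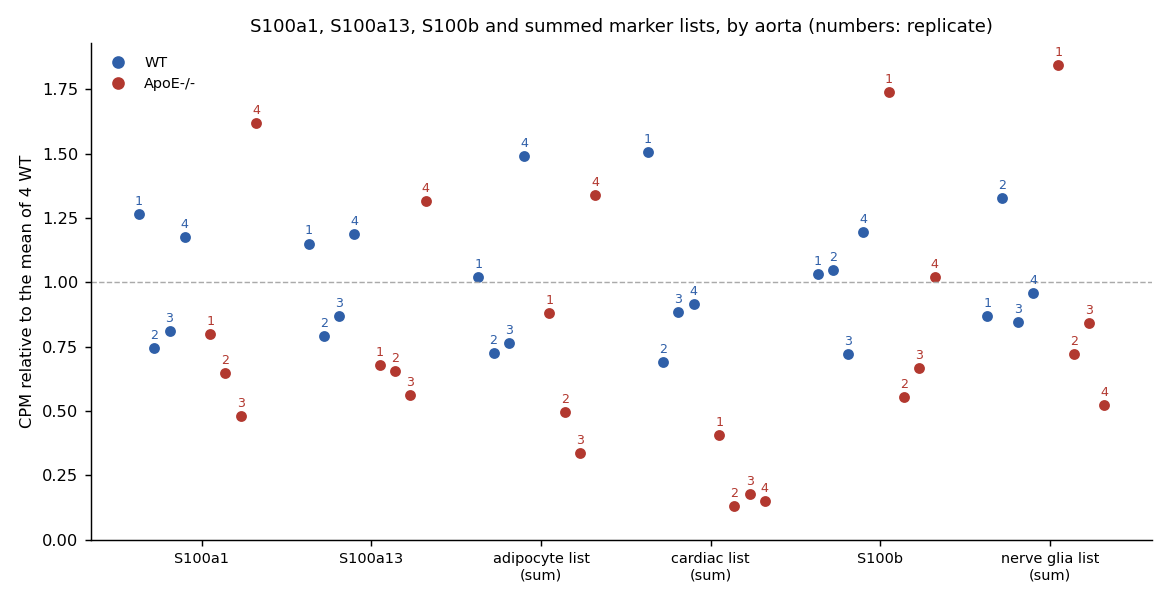
CPM of S100a1, S100a13 and S100b and the summed CPM of adipocyte, cardiac and nerve glia marker lists, each divided by its mean in 4 WT aortas (dashed line at 1), with 1 point per aorta numbered by replicate. ApoE-/- replicate 4 is highest for S100a1 and S100a13, and ApoE-/- replicate 1 is highest for S100b and for the glia sum.

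*S100b* (ENSMUSG00000033208.7), a marker of Schwann cells and other glia that adipocytes also make, had 43.0, 13.7, 16.5 and 25.2 CPM in ApoE-/- and 25.6, 25.9, 17.8 and 29.5 CPM in WT replicates 1 to 4. ApoE-/- replicate 1 was the highest of all 8 aortas and ApoE-/- replicate 2 the lowest, so the genotypes overlapped fully. The log2 fold change was −0.01 (SE 0.35, 95% interval −0.82 to 0.81). Without ApoE-/- replicate 1 it was −0.42 (edgeR adjusted p = 0.409). Nerve glia genes, 10 of 10 tested with none called by edgeR or DESeq2, summed to 1687, 659, 769 and 478 CPM in ApoE-/- and 794, 1212, 773 and 877 CPM in WT replicates 1 to 4. Both *S100b* and the glia sum were highest in ApoE-/- replicate 1, but ApoE-/- replicate 4, with the lowest glia sum, had an *S100b* level within the WT range and the second highest adipocyte sum. The part of nerve or fat in these values was not tested. The genes closest to *S100b* were *Sh3bgrl2* (RMS difference 0.12), *Dok6*, an adaptor of receptor tyrosine kinases (0.13), and *Prnp*, the prion protein gene (0.13).

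The family outside the 9 members added no called gene. Of 9 further S100 genes in the table, 6 had too few counts to be tested, among them *S100z* and *S100a7l2* with 0 counts in every library. The 3 tested, *S100a10*, *S100a7a* and *S100g*, all overlapped between genotypes (edgeR 0, DESeq2 0 and limma-voom 0 calls, with 0 at an unadjusted p under 0.05 in each). *S100a7a*, which in human relatives is an antimicrobial protein of skin, had 0.568 to 3.98 CPM in ApoE-/- and 0.814 to 2.33 CPM in WT. *S100g*, an intestinal calcium carrier also called calbindin-D9k, had 0.347 to 1.00 CPM against 0.287 to 0.78 CPM.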

How the data were processed

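Stranded libraries of ribodepleted total RNA were sequenced as paired ends of 50 bases. For every mouse the authors deposited the number of read pairs on each gene, as raw counts. The submitters' processing notes name TopHat2, HTSeq, GRCm38 and mm10, and versions and gene annotation are not given in the sources used here. Pairs that HTSeq assigned to no single gene, 64.4% to 72.1% of all pairs, were left out. GENCODE M21 (GRCm38) held 21817 of the 21859 gene identifiers and was used for positions and exon lengths. *S100a13* had another identifier version there.

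Counts were analysed with R 4.3.3, edgeR 4.0.16 (filterByExpr, which kept 15077 genes, TMM factors, quasi-likelihood F test with robust estimation), DESeq2 1.42.0 and limma 3.58.1, with genotype as the only factor, two-sided tests and adjustment over all genes tested. The standard error is the log2 fold change divided by the square root of F. Log2 CPM used a prior count of 2. The genes named are the members, lists of relatives, receptors, partners and cell markers, and the 3 tested genes closest to each member. Members and lists were chosen with earlier results of these data known. The alternatives were other tools, scaling factors, low-count filters and estimation, a block for replicate number, and fits without 1 mouse at a time. Replicates are separate mice. Promoter windows of all 9 members were found in RefSeq (GRCm38.p6).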

Additional observations from a re-analysis of the deposited data

Results flagged for a closer look

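Values of 35 S100, receptor and partner genes were screened for single mice that stood apart from the other 3 of their genotype, by Dixon's ratio of gap to range at the 95% level. Such a gap was found in 3 of 70 groups, where chance gives 3.5. For *S100a13* the gap below ApoE-/- replicate 4 (49.96 CPM) was 0.845 of the range of its genotype. For *S100a7a* that below ApoE-/- replicate 2 (3.98 CPM) was 0.898. For *Ryr2* that below WT replicate 3 (335 CPM) was 0.84.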

How the results depend on the processing

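Members called numbered 0 in edgeR, 2 in DESeq2 and 0 to 1 when edgeR left out each mouse in turn, where the 1 was *S100a4* without ApoE-/- replicate 1. All genes called numbered 70, 725 in DESeq2, 29 in limma-voom, 2 with the replicate block and 593 without ApoE-/- replicate 1, against 0 to 17 without any other mouse. Of these, 80% were higher in ApoE-/- in edgeR and 64.8% in DESeq2. Receptors and partners called numbered 0, and 1 in DESeq2. In DESeq2 without each mouse, added after seeing the data, 1 to 2 members, 445 to 1562 genes and 0 to 4 receptors and partners were called. *S100a9* was called in all 8 of those fits, and *S100a4*, *S100a8* and *S100a13* in 1 each, without ApoE-/- replicates 1, 3 and 4 in that order. The log2 fold change of *S100a4* was 0.82 to 1.19 in DESeq2 over the 8 fits. The sign of small differences turned when single mice were left out: edgeR gave −0.64 to 0.031 for *S100a1*, −0.062 to 0.23 for *S100a6*, −0.25 to 0.0034 for *S100a16* and −0.42 to 0.19 for *S100b*, and DESeq2 gave −0.66 to 0.019 for *S100a1*, −0.069 to 0.22 for *S100a6*, −0.26 to −0.0013, without a turn, for *S100a16* and −0.43 to 0.17 for *S100b*. The cause was not tested. *S100a9* kept a log2 fold change of 1.84 to 2.48 in edgeR without each mouse, with adjusted p from 0.0542 to 0.234, and could not be fitted with at least 10 counts in every library. The replicate numbers name different mice, and same-numbered deviations correlated at −0.448 to 0.316 across genes, so the samples were not taken as pairs, and the replicate block called 0 members. Depth limits *S100a8*, with 3 to 8 counts in each WT library.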

Other observations

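The remaining marker lists gave these values. Genes of chondrocytes summed to 489 CPM in ApoE-/- replicate 3 and to 46.9 to 102.8 CPM in the other 7 aortas, and their part in the S100 values was not tested. Genes of T and B cells summed to 16.1 to 66.4 CPM in ApoE-/- and 12.5 to 32.6 CPM in WT, and 0 of 7 tested were called by edgeR or DESeq2. Endothelial genes, 8 of 8 tested with negative differences, summed to 1728 to 2565 CPM against 2469 to 2987 CPM, with 0 called by edgeR and 4 by DESeq2. Contractile smooth muscle genes, among the most abundant of the wall, had 1 positive and 8 negative differences with 0 called by either tool. Skeletal muscle genes summed to 13.7 to 34.0 CPM against 18.5 to 32.7 CPM, and genes of mesothelium and epithelium to 6.29 to 7.36 CPM against 5.43 to 34.4 CPM. In either list 0 were called by edgeR, and DESeq2 called 1, *Ckm*, the creatine kinase of muscle, lower in ApoE-/-. *Ckm* (19404776 to 19422841) lies near *Apoe* (19696109 to 19699188) on chromosome 7, and the part of this position was not tested.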
